A study of Rattus norvegicus with 3 samples.

Results

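The genes of the proteasome, its assembly factors and its activators were followed in kidney RNA of spontaneously hypertensive rats. The set holds every gene whose name on the array begins with Psma, Psmb, Psmc, Psmd, Psme, Psmf or Psmg, apart from Psmb8 and Psmb9, and counts 47 of the 19395 gene names on the array. Each gene was represented by its brightest probe above background, and a probe counted as above background where its signal-to-noise ratio reached 3. Of the 47 genes, 45 were above background on every array, and the values below are those of these 45 unless stated. Membership goes by gene name and uses no intensity, while the choice of probe for each gene uses its signal.

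All rats were males of the hypertensive strain on a Wistar background, aged 8 to 10 weeks and weighing 280 to 330 g, and no normotensive strain was included. The control group was given water by mouth, the low-dose group received 10 mg/kg and the high-dose group 20 mg/kg of a hydrolysate of blue mussel protein (HBMP) per day by mouth, for 4 weeks. Groups had 10 rats, and kidney RNA of 4 rats per group was combined into 1 pool on 1 single-colour array. With 1 pool per group there is no spread between animals to test against, and all differences describe these 3 arrays. The arrays lay on 1 slide, and a group cannot be told apart from its place on it.

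The proteasome is the large protease that degrades proteins tagged with ubiquitin. Its barrel-shaped core is built from rings of alpha subunits (Psma genes), which gate the entrance, and rings of beta subunits (Psmb genes), of which Psmb5, Psmb6 and Psmb7 carry the active sites. A regulatory cap sits on the core: its base holds a ring of ATPases (Psmc genes) that unfold substrates and draw them in, and its lid (most Psmd genes) removes ubiquitin chains. Under interferon gamma, cells make alternative catalytic subunits, among them Psmb10, and the activator Psme1-Psme2, which together favour peptides for antigen presentation. In the kidney, tubule cells rely on the proteasome for turnover of damaged and regulatory proteins.

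Intensities are given after scaling each array to a common 75th percentile, and differences are on the log2 scale, where 1 is a 2-fold difference. Among probes printed on 10 spots, the log2 difference between arrays varied from spot to spot with a median SD of 0.12 for low dose minus control, 0.12 for high dose minus control and 0.08 for high dose minus low dose (1111 probes). This spread is technical and holds nothing of the difference between rats. The value of a member rests on 1 spot per array unless 10 spots are stated. Over all 10270 genes above background on every array, the median difference was -0.11 for low dose minus control, -0.05 for high dose minus control and 0.04 for high dose minus low dose. All 10 kidney markers examined were above background on every array, with median differences of -0.37 at the low dose and -0.34 at the high dose and, at each dose, 6 of 10 at least 0.32 below control. Among them, low dose minus control was -0.92 for Slc12a1 and 1.33 for Aqp2. Markers of other cell types differed between the arrays too. The summed intensity of 4 smooth muscle markers, 3 of them above background, was 658 at the low dose and 629 at the high dose, against 351 in control. The summed intensity of 8 adipocyte markers was 8420 at the low dose and 3788 at the high dose, against 751 in control, with 4 of the 8 above background on every array and Plin1 and Lep on none. That of 9 macrophage and leukocyte markers, all above background, was 13249.5 at the low dose and 7948 at the high dose, against 9072 in control. Cd74 made up most of this sum, with 8054 at the low dose, 5509 at the high dose and 6681 in control. Taken singly, 6 of the 9 markers were above control at the high dose, with a median difference of 0.18. In such tissue RNA, fewer cells of a type and less RNA per cell cannot be told apart.

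As a set the proteasome genes lay close to their control level at both doses. None of the 45 genes differed by 2-fold in any comparison. Of all genes 3.26% did so between low dose and control, 1.03% between high dose and control and 1.76% between the doses. In a set of 45, a count of 0 is near these small shares and does not set the members apart. At a smaller limit of 0.32 on the log2 scale, 1 member (Psmb10) was higher and 1 (Psmd11) lower at the low dose than in control, against 12.6% and 20.8% of all genes. At the high dose 4 members (Psma1, Psmb7, Psmc3 and Psme3) were higher and 2 (Psmd1 and Psme4) lower than control at this limit, against 12.0% and 18.1% of all genes. The differences were also less dispersed than those of all genes, with an interquartile range of 0.26 at the low dose and 0.28 at the high dose (each minus control), against 0.39 and 0.40 over all genes. Members are bright on these arrays (38 of 45 lie in the brighter part when all genes are split at their median level), and genes of that part had interquartile ranges of 0.36 and 0.39 in the same comparisons.

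At the low dose 20 of 45 members were above control, against 35.3% of all genes, and the median over the members was -0.03. At the high dose 28 of 45 were above control, against 43.2% of all genes, with a median of 0.08. Between the doses 28 of 45 were higher at the high dose, against 54.9% of all genes, with a median of 0.08. Under every alternative processing tried, 18 to 22 members stood above control at the low dose and 28 to 31 at the high dose.

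**Figure D1:**
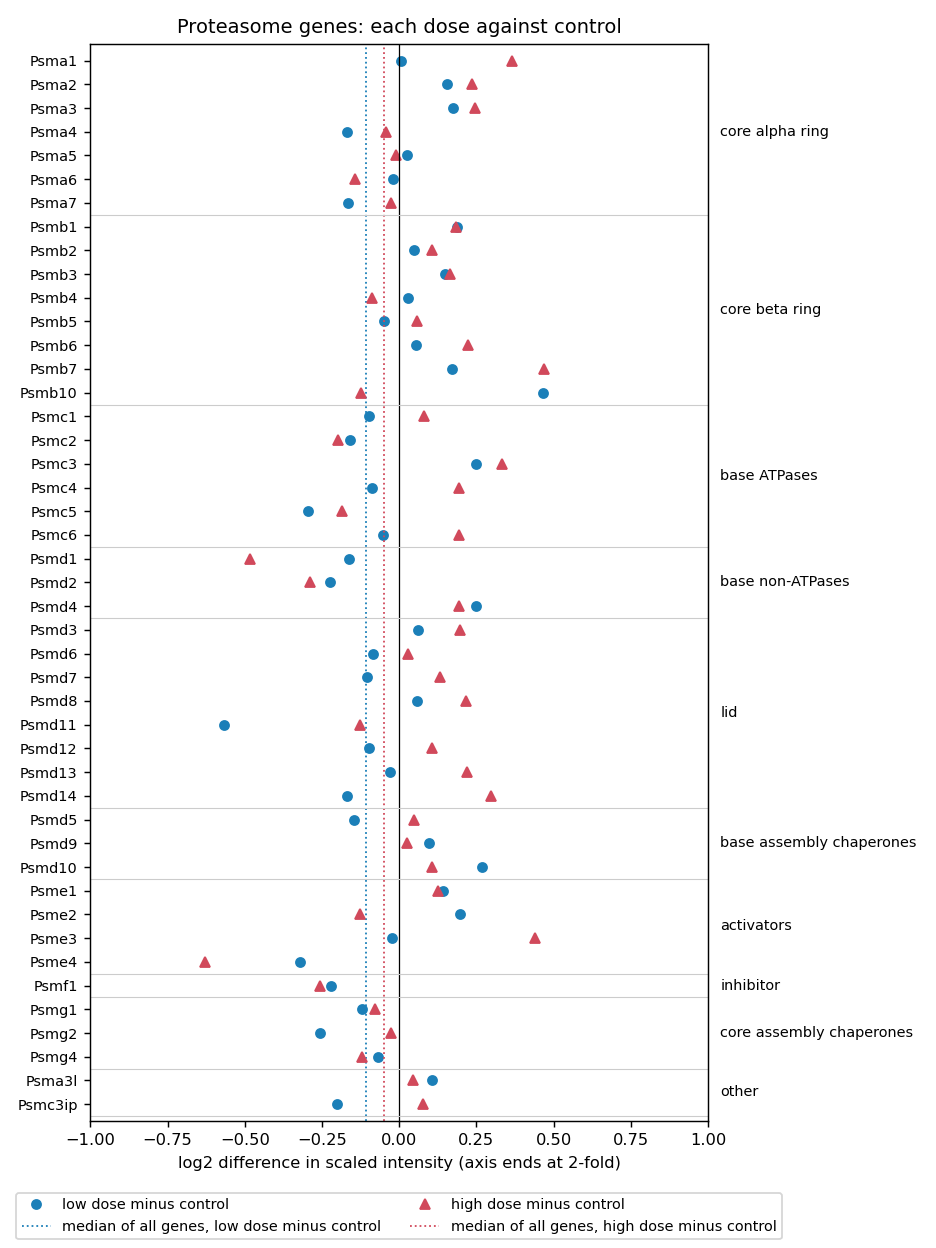
Log2 difference in scaled intensity from control (x axis) for the 45 members above background, at the low dose (circles) and the high dose (triangles), grouped by role, with dotted lines at the median of all genes. No point reaches the axis ends at 2-fold, and the points farthest from 0 are Psme4 at the high dose (-0.63) and Psmd11 at the low dose (-0.57).

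The alpha ring forms the outer rings of the core and was nearly level. Its 7 measured members ranged from -0.17 to 0.17 at the low dose and from -0.14 to 0.36 at the high dose, each minus control. Psma1 had intensities of 1282 in control, 1288 at the low dose and 1651 at the high dose, so that the high-dose array stood apart from the other two (0.36 minus control). Psma3 was lowest in control and highest at the high dose, with 181 in control, 204 at the low dose and 215 at the high dose. Psma2 had the same order of arrays, with 1461 in control, 1625 at the low dose and 1720.4 at the high dose. Psma4 was lowest at the low dose, with 1596 in control, 1419.6 at the low dose and 1548 at the high dose, and the low-dose difference from control was -0.17 in both Psma4 and Psma7. Psma6 was lowest at the high dose, with 4831 in control, 4766 at the low dose and 4377 at the high dose. Psma5, measured on 10 spots, averaged a spot difference of 0.06 ± 0.38 at the low dose and 0.02 ± 0.33 at the high dose (SD, n = 10 spots, minus control), and its highest spot difference, 1.02 at the low dose, came from the 1 member spot within a region of low signal on the control array. Psma8, the alpha subunit made in testis, was not above background on any array, with intensities of 9.17 in control, 4.80 at the low dose and 11.8 at the high dose.

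The beta ring lay slightly above control in most members. At the low dose 7 of 8 measured beta subunits were above control (median 0.10), against 35.3% of all genes. At the high dose 6 of 8 were above control (median 0.14), against 43.2% of all genes. The constitutive catalytic subunits lay close to control at the low dose. Psmb5, which carries the chymotrypsin-like site, had 2841 in control, 2745 at the low dose and 2955 at the high dose, differences of -0.05 and 0.06 from control, within the technical spread. The low-dose value of Psmb5 turned positive, at most 0.03, under normexp (a model-based background correction), with correction for position on the array and in the authors' deposited table. Psmb6, with the caspase-like site, had 564 in control, 585 at the low dose and 658 at the high dose. Psmb7, with the trypsin-like site, had 330.0 in control, 371 at the low dose and 457 at the high dose, and at 0.47 it was the beta subunit farthest above control at the high dose. All 3 catalytic subunits were thus highest at the high dose. Among structural beta subunits, Psmb1 had 780.3 in control, 888 at the low dose and 887 at the high dose. Psmb3 was likewise above control at both doses, by 0.15 at the low dose and 0.17 at the high dose. Psmb4 had 4162 in control, 4244 at the low dose and 3911 at the high dose. Psmb2, on 10 spots, averaged 0.06 ± 0.18 at the low dose and 0.11 ± 0.13 at the high dose (SD, n = 10 spots, minus control). Of these spots, 4 were above control at the low dose and 7 at the high dose. The low-dose value of Psmb2 turned negative with the median over spots and in the authors' deposited table (-0.07). Psmb11, the beta subunit of the thymus, was above background on the control array only, at the limit (signal-to-noise ratio 3), with intensities of 22.9 in control, 15.3 at the low dose and 10.9 at the high dose.

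The inducible subunit Psmb10 had another order of arrays than the constitutive catalytic subunits. Psmb10 had 1129.8 in control, 1559.7 at the low dose and 1038 at the high dose. The low-dose array stood apart, 0.47 above control and with the high-dose array 0.59 below it, while the high dose was -0.12 from control. Across the alternatives the low-dose difference ranged from 0.44 to 0.49. Psmb10 was measured on 1 spot per array, so this range reprocesses the same spot and is no repeat measurement. Psme2, the beta subunit of the interferon-inducible activator, followed the same order, with 2835 in control, 3249 at the low dose and 2594 at the high dose. All 10 of its spots were above control at the low dose, with a mean difference of 0.20 ± 0.14 (SD, n = 10 spots), and in the authors' deposited table its difference there was 0.08. In high dose minus low dose, all 9 usable spots were below 0, with a mean of -0.33 ± 0.06 (SD, n = 9 spots). The excluded spot was non-uniform on the high-dose array, and with such spots kept Psme2 stood at 0.04 in place of -0.13 for high dose minus control and at -0.16 in place of -0.32 between the doses. Psme1, the partner alpha subunit, had 6333 in control, 6985 at the low dose and 6905 at the high dose, so it stood slightly above control at both doses (0.14 and 0.12).

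The 2 inducible subunits outside the set, Psmb8 and Psmb9, are encoded in the major histocompatibility complex, and their differences were 0.82 and 0.59 at the low dose and 0.34 and -0.14 at the high dose, each minus control. A list of 9 interferon gamma response genes that holds both had 6 above background on every array, 5 of them above control at the low dose and 3 at the high dose. Its median difference was 0.72 at the low dose and -0.00 at the high dose, and its summed intensity was 2835 at the low dose and 1961 at the high dose, against 2083 in control. Cxcl9 and Irf8 were above background on no array. Irf1, a transcription factor of this response, had 279.6 in control, 473 at the low dose and 299 at the high dose, and Gbp2, a guanylate-binding protein, had 300.2 in control, 484 at the low dose and 298 at the high dose. The 9 macrophage and leukocyte markers, all above background, had a median difference of 1.17 at the low dose and 0.18 at the high dose, with 8 and 6 above control. The part of these other genes and cells in the Psmb10 and Psme2 differences was not tested.

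**Figure D2:**
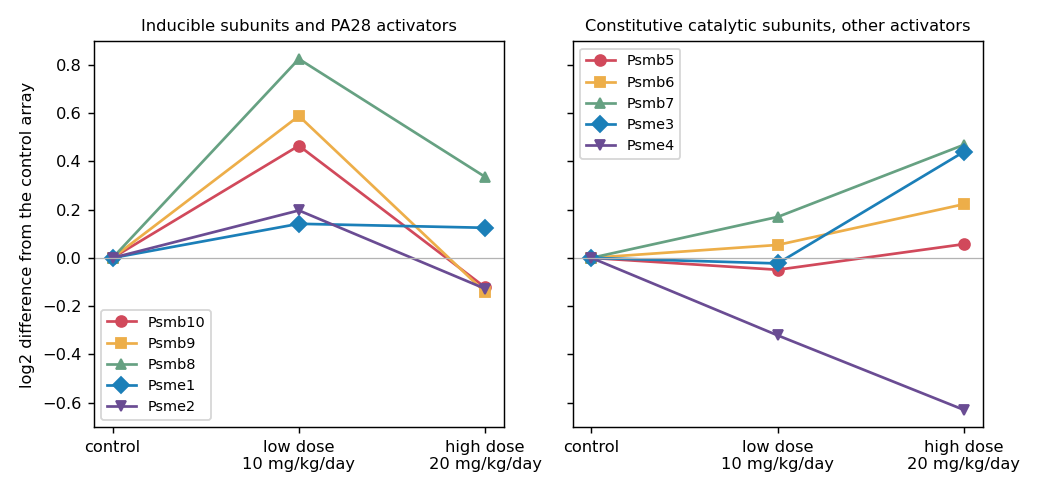
Log2 difference from the control array (y axis) at control, low and high dose for the inducible subunits and the Psme1-Psme2 activator (left) and for the constitutive catalytic subunits, Psme3 and Psme4 (right), 1 array per point. On the left Psmb8, Psmb9, Psmb10 and Psme2 peak at the low dose, and on the right Psmb7 and Psme3 are highest and Psme4 lowest at the high dose.

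Promoter sequences of Psmb10 and Psme2 are shown because these members had the same order of arrays and share a sequence motif. The 250 bases before each start site were taken from RefSeq (build GRCr8), which held 41 of the 47 members. They were searched on both strands for GAAA followed after any 2 bases by GAAA, a pattern of interferon regulatory factor sites, and for TTCNNNGAA, the pattern bound by STAT factors. The patterns were counted separately and may overlap. Capitals mark the matches to the first, and each sequence reads along the strand of its gene.
Psmb10 (chr19:50743293-50743542, minus strand): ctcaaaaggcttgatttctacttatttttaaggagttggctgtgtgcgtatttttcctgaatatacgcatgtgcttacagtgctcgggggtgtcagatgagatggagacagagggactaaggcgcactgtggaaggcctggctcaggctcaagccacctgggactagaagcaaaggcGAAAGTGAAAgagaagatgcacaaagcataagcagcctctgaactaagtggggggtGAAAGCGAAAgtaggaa
Psme2 (chr15:33052752-33053001, minus strand): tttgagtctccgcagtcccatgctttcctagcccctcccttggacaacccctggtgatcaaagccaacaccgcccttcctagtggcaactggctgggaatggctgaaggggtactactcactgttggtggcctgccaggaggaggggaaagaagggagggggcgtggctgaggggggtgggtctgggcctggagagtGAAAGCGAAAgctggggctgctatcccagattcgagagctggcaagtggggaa

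The pattern began 73 and 17 bases before the start of Psmb10 and 53 bases before that of Psme2. It occurred in 5 of the 41 member promoters (12.2%), against 3.41% of 33469 promoters of the same length. The other members that hold it are shown by their windows below, on the strand of the gene, where Psmb3 and Psmd7 carry the pattern reversed.
Psma4 (chr8:64236276-64236305, plus strand): gtacagaagaGAAAATGAAAgtggagtgca
Psmb3 (chr10:83193634-83193663, plus strand): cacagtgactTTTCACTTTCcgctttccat
Psmd7 (chr19:52411363-52411392, minus strand): aaggcagcccTTTCCCTTTCtcaagatggc
These members did not share the order of arrays: low dose minus control was -0.17 for Psma4, 0.15 for Psmb3 and -0.11 for Psmd7. Conversely, Psma5 and Psmb4 had the order of Psmb10 and Psme2 but are not among the 5 members with the pattern. Their differences were smaller, 0.03 in both at the low dose and -0.01 and -0.09 at the high dose, each minus control. The pattern TTCNNNGAA occurred in 3 member promoters (7.32%), those of Psmc6, Psmd3 and Psmd7, against 7.67% of all. The GC box GGGCGG was present in 70.7% of member promoters, against 30.5% of all, and CCAAT in 46.3%, against 34.0% of all. A match is a description of the letters only.

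The base of the cap holds 6 ATPases and 3 other subunits. At the low dose 1 of the 6 ATPases was above control (median -0.09), against 35.3% of all genes, and 4 of the 6 lay above the median of all genes. At the high dose 4 were above control (median 0.14), against 43.2% of all genes. Psmc3 was the exception at the low dose, with 841 in control, 999 at the low dose and 1059.9 at the high dose, differences of 0.25 and 0.33. Psmc5 was lowest at the low dose, with 4757 in control, 3876 at the low dose and 4184 at the high dose. Psmc2 was lowest at the high dose, with 3725 in control, 3337 at the low dose and 3249.8 at the high dose. Psmc4 had 368 in control, 346 at the low dose and 420.3 at the high dose, which made it the ATPase with the largest difference between the doses (0.28). Psmc1 and Psmc6 lay within 0.20 of control at both doses.

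Of the base subunits without ATPase activity, the scaffolds Psmd1 and Psmd2 stood below control and the ubiquitin receptor Psmd4 above it. Psmd1 had 3832 in control, 3419.6 at the low dose and 2740.3 at the high dose, differences of -0.16 and -0.48 from control, and it was the subunit of core, base or lid farthest below control at the high dose. That difference ranged from -0.49 to -0.38 across the alternatives. Psmd2 had 3710.4 in control, 3179.8 at the low dose and 3037 at the high dose, differences of -0.22 and -0.29. Psmd4 had 1199.7 in control, 1426 at the low dose and 1372 at the high dose, differences of 0.25 and 0.19. The 3 genes thus kept their direction at both doses, and each rests on 1 spot.

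Of core, base and lid, the lid was the part in which all genes differed in the same direction between the doses. All 8 lid genes were higher at the high dose than at the low dose, against 54.9% of all genes, with differences from 0.11 to 0.47 and a median of 0.22. This held under all 13 alternatives, with medians from 0.20 to 0.24. Some of these could not have changed it, as each lid gene has 1 probe and is above background on every array. They are the alternatives in probe choice, in the intensity floor and in keeping members not above background. The lid was not alone in this lean, as 5 of the 6 base ATPases were also higher at the high dose (median 0.14). The SD over genes was 0.12 in these ATPases and 0.13 in the lid. Of the 3 other base subunits, 0 were higher. Most lid probes are dim for the set, and dimmer genes as a whole leaned the same way. Of all genes below the median level of the members, 56.7% were higher at the high dose than at the low dose, against 47.3% of those at or above it. Of members the counts were 16 of 22 below that level and 12 of 23 at or above it, and the part of signal level in the lid result was not tested. At the high dose 7 of 8 lid genes were above control (median 0.16), against 43.2% of all genes. At the low dose 2 of 8 were above control (median -0.09, a little above the median of all genes), against 35.3% of all genes.

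Psmd14, the metalloprotease that cuts ubiquitin chains from substrates as they enter, had 129 in control, 115 at the low dose and 159 at the high dose, which made its difference between the doses, 0.47, the largest in the lid. Psmd11, a lid scaffold known in human embryonic stem cells as a limit on proteasome assembly, had 172 in control, 116 at the low dose and 157 at the high dose. Its difference of -0.57 at the low dose was the lowest of any member in that comparison, and it was -0.41 under normexp. The Psmd11 value rests on 1 spot of a probe that was not matched to RefSeq by accession. Psmd3 was the highest lid gene at the low dose, with 181 in control, 189 at the low dose and 207 at the high dose, level with Psmd8 at 0.06. Psmd13 had 269 in control, 264 at the low dose and 314 at the high dose. Psmd7, the inactive partner of Psmd14, had 311 in control, 289 at the low dose and 340.3 at the high dose. Psmd12 and Psmd6 were each measured on 10 spots. Psmd12 averaged -0.09 ± 0.09 at the low dose and 0.11 ± 0.09 at the high dose, each minus control, and 0.20 ± 0.06 in high dose minus low dose, where all 10 spots were above 0 (SD, n = 10 spots). Psmd6 averaged -0.07 ± 0.10 at the low dose and 0.03 ± 0.11 at the high dose, each minus control, and 0.11 ± 0.14 between the doses, with 9 of 10 spots above 0 (SD, n = 10 spots).

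**Figure D3:**
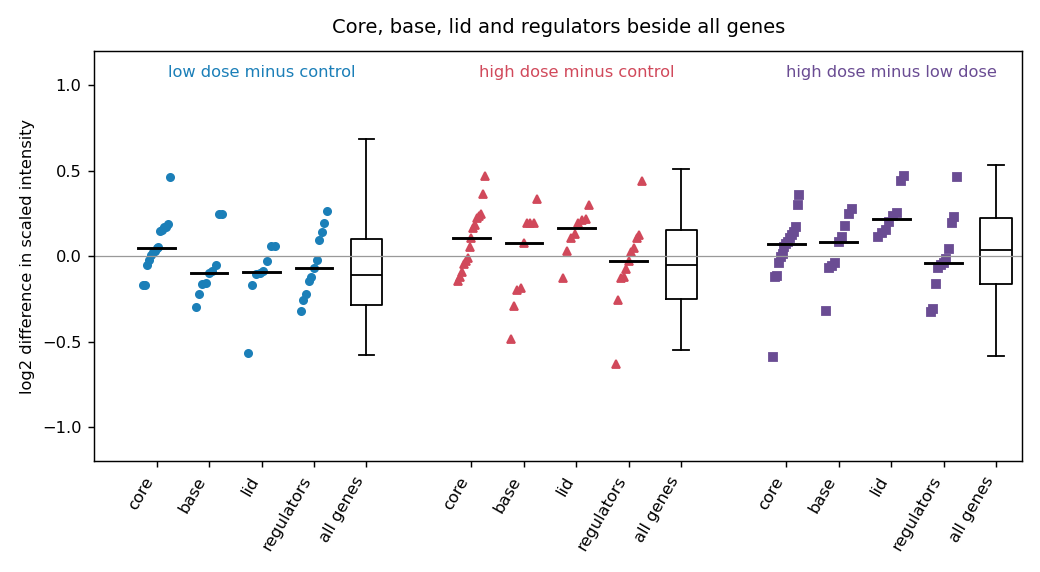
Log2 difference (y axis) of each measured member of core, base, lid and regulators in the 3 comparisons, with black lines at group medians, beside boxes for all 10270 genes (box: quartiles, whiskers: percentiles 5 and 95). The lid lies above 0 in every member for high dose minus low dose, and Psmb10 is the lowest core point there.

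Set side by side, the medians of core, base and lid differed by at most 0.15. At the low dose the 15 measured core genes had a median of 0.05, the 9 base genes -0.10 and the 8 lid genes -0.09, each minus control. The core thus stood 0.15 above the base and 0.14 above the lid, and the core median lay above 0 and those of base and lid below 0 under all 13 alternatives. Base and lid genes have 1 probe each, so the alternatives in probe choice could not change their medians. The median of all genes in this comparison was -0.11 (-0.15 to -0.07 across the alternatives), close to the medians of base and lid. At the high dose the medians were 0.11 for the core, 0.08 for the base and 0.16 for the lid, and all stayed above 0 under the alternatives. In high dose minus low dose they were 0.07, 0.08 and 0.22 for core, base and lid. No test was possible between the parts of the complex.

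The activators other than Psme1 and Psme2 stood apart at the high dose in opposite directions. Psme3, which forms the nuclear activator that acts without ubiquitin, had 121 in control, 119 at the low dose and 164 at the high dose. All 10 of its spots were above control at the high dose, with a mean of 0.46 ± 0.27, and in high dose minus low dose all 10 were above 0, with a mean of 0.47 ± 0.08 (SD, n = 10 spots). The largest spot difference of Psme3, 1.11, came from a spot with a low signal-to-noise ratio of 5.82 on the control array, and normexp gave 0.30 for the gene. Psme4, the activator that caps the core in spermatogenesis and chromatin repair, had 314 in control, 251 at the low dose and 203 at the high dose on its brightest probe, and its -0.63 was the lowest value of any member. It was 1 of 2 values of the set past 1.5-fold, beside Psmb10 between the doses (-0.59), where 7.71% of all genes passed 1.5-fold between high dose and control and 8.89% between the doses. The dimmer probe of Psme4, with 10 spots, gave a smaller difference: -0.16 ± 0.15 at the low dose and -0.22 ± 0.17 at the high dose, with 9 of 10 spots not above control in each (SD, n = 10 spots, minus control).

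**Figure D4:**
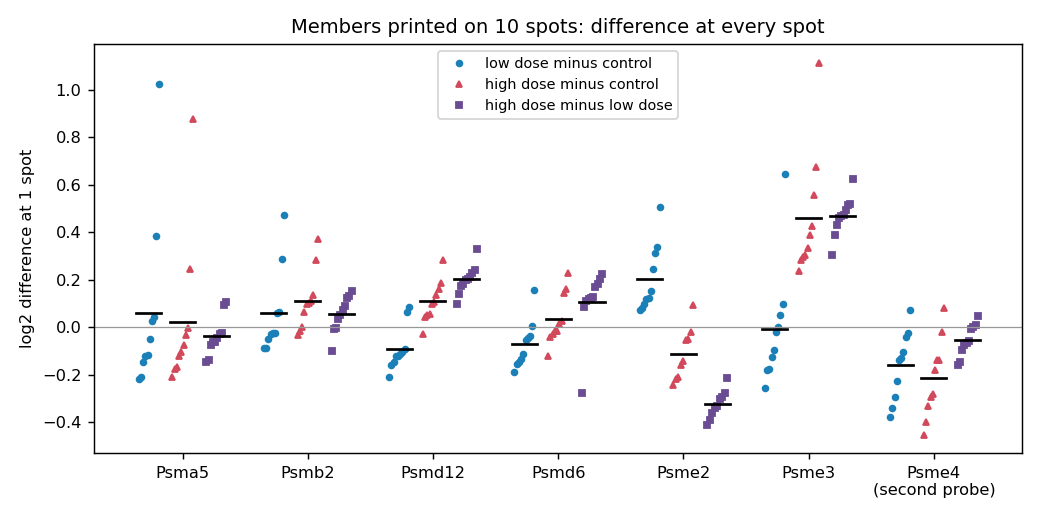
Log2 difference at every spot (y axis) for the 7 members with a probe on 10 spots, in 3 comparisons, with black lines at the means (Psme4 is shown by its dimmer probe). Psme2 lies below 0 and Psme3 and Psmd12 above 0 at every spot for high dose minus low dose, and single spots of Psma5 and Psme3 sit far from the others where control is involved.

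The inhibitor and the assembly chaperones lay near control. Psmf1, an inhibitor of the core, had 933 in control, 801 at the low dose and 781 at the high dose, but a dimmer probe gave 0.34 at the high dose in place of -0.26, so its direction there is unsettled. The chaperones that build the core (Psmg1, Psmg2 and Psmg4) were below control at both doses, except Psmg2 at the high dose with position correction (0.02) and Psmg4 at the low dose in the authors' deposited table (0.05) and with the median of pixels. Psmg2 was the lowest at the low dose, with 82.5 in control, 69.1 at the low dose and 81.0 at the high dose. Psmg1 had 1423 in control, 1308 at the low dose and 1349 at the high dose. Psmg4 had 809 in control, 771 at the low dose and 744 at the high dose, and its second probe gave 0.06 at the high dose in place of -0.12. Of the chaperones that build the base, Psmd10, also known as the oncoprotein gankyrin, had 283 in control, 341 at the low dose and 305 at the high dose. Psmd5 had 129 in control, 117 at the low dose and 134 at the high dose. Psmd9 had 777 in control, 829.7 at the low dose and 791 at the high dose, and its probes gave -0.07 and 0.25 for high dose minus low dose.

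Psma3l and Psmc3ip carry the prefix but no subunit role assigned here. The accession of the Psma3l probe belongs to Psma3 in RefSeq, so the value may be shared with that gene, and its differences were 0.11 at the low dose and 0.05 at the high dose, each minus control. Psmc3ip, a protein of meiotic recombination that binds Psmc3, stood at -0.20 and 0.08.

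Genes that work with the proteasome were examined as a separate list of ubiquitin genes, shuttles, the unfolding segregase, cofactors and transcription factors. Of 29 members above background, 4 were above control at the low dose and 11 at the high dose, with medians of -0.15 and -0.07, against 35.3% and 43.2% of all genes above control. At the limit of 0.32, 4 were lower at the low dose and 5 at the high dose, against 20.8% and 18.1% of all genes, and across the alternatives 1 to 4 and 3 to 6. Nfe2l1, the transcription factor that raises proteasome genes when the protease is inhibited, had 213 in control, 161 at the low dose and 152 at the high dose, differences of -0.40 and -0.49. Pomp, the maturation factor of the core, was level, with 4662 in control, 4637 at the low dose and 4729.6 at the high dose. Of the deubiquitinases on the cap, Usp14 had 215 in control, 196 at the low dose and 206 at the high dose, and Uchl5 had 235 in control, 216 at the low dose and 271 at the high dose. The ubiquitin receptor Adrm1 was above background on 1 array only, with 51.6 in control, 52.8 at the low dose and 69.1 at the high dose. Txnl1, a thioredoxin-like protein bound to the cap, had 2228 in control, 1464 at the low dose and 1973 at the high dose, and its low-dose difference of -0.61 was -0.28 with the median of pixels and -0.26 in the authors' deposited table.

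Because Nfe2l1 acts through antioxidant response elements, the member promoters were also searched on both strands for TGACNNNGC. It occurred in 7 of 41 (17.1%), against 10.1% of all promoters of that length. Windows of 4 of them are shown, those of the catalytic subunits Psmb5 and Psmb6 and of the members lowest at the high dose, Psmd1 and Psme4, with the match in capitals. Psme4 carries it reversed.
Psmb5 (chr15:32047421-32047449, minus strand): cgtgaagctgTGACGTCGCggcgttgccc
Psmb6 (chr10:55737854-55737882, plus strand): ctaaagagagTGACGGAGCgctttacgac
Psmd1 (chr9:94157796-94157824, plus strand): accagatctaTGACCTCGCgagaattata
Psme4 (chr14:108706578-108706606, plus strand): ggagaaagccGCTGGGTCAcctcctcgcc
High dose minus control was 0.06 for Psmb5, 0.22 for Psmb6, -0.48 for Psmd1 and -0.63 for Psme4. Psmd1 and Psme4 were picked as the lowest, so the split in direction among these 4 follows from the choice. The remaining matches were in Psma3 (0.25), Psmb2 (0.11) and Psmd9 (0.03 on its brightest probe), all above control. Whether the motif bears on these differences was not tested.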

How the data were processed

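Labels gave each array's group. Per the file headers, the authors' GenePix Pro 6.1.0.4 software read spot intensity at 532 nm and subtracted a background of 39 (control, high dose) or 40 (low dose). Signal-to-noise ratio and flag are deposited scores, and saturated pixels a deposited percent. The authors also deposited log2 values, scaled between arrays by a method not given in the sources used here; Agilent Feature Extraction is listed in the submitters' processing notes.

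Control spots, non-uniform spots (pixel mean and median over 1.5-fold apart; 135 in control, 131 at low dose, 70 at high dose) and bright spots not found (6, 5 and 6) were left out. Net means were averaged over spots, scaled to a common 75th percentile (factors 1.15, 0.959 and 0.910), floored at 1 and log2-transformed. A probe needed a ratio of 3 or more on 50% of its spots; 50.6%, 52.1% and 54.7% of 30365 probes passed. A gene took the probe above background on most arrays, then the brightest. The high-dose header names a mouse array, but its probes, positions and gene names equal those of the other rat arrays. No member spot was saturated. RefSeq (GRCr8) matched 44 of 47 members by accession, 43 under the same symbol.

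Members, lists, named genes and the pixel filter were chosen with earlier results of these data known. Named were the extremes of each role group, values past 1.5-fold, catalytic subunits, regulators and dim members; 1 related gene past 1.5-fold is not reported here. No test was possible with 1 array per group; precision is limited by their number. The steps were tested on simulated data. Normexp used limma 3.58.1 (offset 50) in R 4.3.3, the rest Python 3.11.15 with pandas 2.3.3.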

Additional observations from a re-analysis of the deposited data

How the results depend on the processing

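Medians and counts of the groups and lists, the members' interquartile range and the differences of named genes were recomputed under 13 alternatives, 3 of them added after the data were seen: position correction in 10 by 10 tiles, the median over spots, and the second brightest probe. A log2 value counted as moved when it shifted by at least the median SD between spots. A count was taken as moved when it changed by more than 1.5-fold, or to or from 0. Of the main group values, 269 kept within these limits and 4 moved. Of the others, 5680 kept within them and 286 moved, among them values of Psmf1, Psme4, Psmd11 and Psmd14. With members not above background kept, 1 member was past 2-fold at the high dose against control and 1 between the doses, in place of 0. In the log2 values the authors deposited, 1 lid gene was above control at the low dose, in place of 2. With the second brightest probe the median of the regulators between the doses was 0.0871, in place of -0.04. Of single-gene differences past 0.32, that of the macrophage marker Csf1r between the doses changed sign, to -0.17 with the second brightest probe in place of 0.66. Summed intensities, values per spot and promoter shares were not recomputed. The array bands across columns had medians from -0.16 to 0.03 for low dose minus control and from -0.11 to 0.10 for high dose minus control. Between the doses the band medians ran from -0.03 to 0.07. The medians of core, base and lid are of similar size to these shifts with position. The weak corner of the control array held 400 spots and 1 of 117 member spots. No paired analysis was possible because each group is 1 array, and for the same reason no replicate could be left out.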

Other observations

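Probes of the same member did not always give the same direction. Of the 4 members with more than 1 probe above background, Psme4 had the same sign on both probes in all 3 comparisons, while Psmf1, Psmg4 and Psmd9 did not. For Psmf1 in high dose minus low dose the brightest probe gave -0.04 and the other 0.47.

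The spread between spots differed by comparison. The SD over spots of Psma5 was 0.08 in high dose minus low dose, against 0.38 and 0.33 in low dose minus control and high dose minus control. For Psme3 the SDs were 0.08, 0.25 and 0.27 in the same comparisons. Psmd6 had the opposite order, with 0.14 in high dose minus low dose, against 0.10 and 0.11 in the comparisons with control.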
